A study of Homo sapiens with 12 samples.

Results

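Transcripts of 9 surface receptors and coreceptors of B cells were followed across 12 RNA libraries: CD79A, CD79B, CR2, CD22, CD72, FCRL3, MS4A1, CD40 and FCER2. They were picked by gene symbol from the 26231 genes of the deposited normalized table, and all 9 were found there. Per the labels all libraries were made from the ALDH-positive fraction of 697(EU3), a human B-cell precursor leukaemia line; this fraction is sorted for high aldehyde dehydrogenase activity. SH2 cells carry a doxycycline-inducible shRNA against IGF2BP1, an mRNA-binding protein, together with a green fluorescent reporter, and were measured untreated (4 libraries, sets 1 to 4) and after doxycycline with sorting for the reporter (4 libraries, sets 1 to 4). Control cells were measured untreated and after doxycycline (2 libraries each, sets 2 and 4); the labels name them as controls for the drug and do not state whether they carry the scrambled shRNA that was also used. Per the design text each set came from its own ALDH sort and its own doxycycline treatment. In any comparison of SH2 with control cells the construct and any other difference between the cells cannot be told apart, nor can the drug, the shRNA and the reporter sort in treated SH2 cells.

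The B-cell antigen receptor is a membrane immunoglobulin that binds antigen but signals through the CD79A and CD79B chains, whose tails carry tyrosine activation motifs. CR2 (CD21) binds complement fragments and joins a coreceptor complex with the tetraspanin CD81 that lowers the threshold for activation, whereas CD22, CD72 and FCRL3 carry inhibitory motifs that recruit phosphatases. MS4A1 (CD20) is a membrane protein of mature B cells and the target of rituximab, CD40 is the TNF-family receptor through which T cells help B cells, and FCER2 (CD23) is the low-affinity IgE receptor, which also binds CR2. CD79A, CD79B, CD22 and CD72 appear at the precursor stage, while CR2, FCER2 and high MS4A1 mark later B cells.

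Libraries held 2210291 to 3370952 reads in genes, and levels are given as CPM (read counts scaled to library size by TMM). IGF2BP1, the shRNA target, was at 21.7, 30.5, 39.2 and 32.9 CPM in untreated and 6.28, 14.8, 25.0 and 16.2 CPM in treated SH2 cells of sets 1 to 4, and at 1.42 CPM or below in control cells. Of the B-lineage markers, 8 of 8 had counts in every group, with a summed level of 541 to 1722 CPM in SH2 and 784 to 1496 CPM in control libraries. The immunoglobulin light chains split by cell kind: IGKC was at 1.81 CPM or below in SH2 and at 847 to 1505 CPM in control libraries, and IGLC2 at 25.9 to 1579 CPM in SH2 and 1.42 CPM or below in control libraries. Among SH2 libraries IGLC2 was lowest in set 4, at 25.9 CPM untreated and 347 CPM treated, against 710 to 1579 CPM in sets 1 to 3. The labels give the same line for both kinds of cell, and with these light-chain values it is not certain that they are, so each fold of SH2 against control cells compares the libraries as labelled. The treated SH2 library of set 4 stood apart by interferon-response genes, with IFI44L at 73.1 CPM against 1.52 CPM or below in the other SH2 libraries. Control libraries of set 2 carried T-cell transcripts that those of set 4 had little of: CD3D was at 232 and 241 CPM in set 2 against 10.5 and 8.79 CPM in set 4, and CD3E at 103 and 103 against 7.59 and 1.91 CPM (untreated and treated). CD3G was at 206 and 193 CPM in control set 2 and at 18.8 and 3.06 CPM in control set 4. In SH2 libraries CD3G was at 20.9 to 85.2 CPM, above control set 4. The summed level of the 9 T-cell markers ran from 15.3 to 656 CPM in control and from 30.3 to 131 CPM in SH2 libraries. CD2 and CD5 were at 0 in SH2 libraries, and CD2 was at 3.32 CPM or below in control libraries too. The natural killer, myeloid and erythroid lists summed to 19.0 CPM or below in every library.

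Without doxycycline 8 of the 9 receptors had lower levels in SH2 cells than in controls, and with it 7 did, by edgeR's quasi-likelihood test at a Benjamini-Hochberg adjusted p under 0.05. Of the 11968 genes tested, 7.84% passed without and 11.1% with doxycycline, 4.9% and 6.48% being lower. CD79B alone did not pass in either comparison, and CD79A did not pass with doxycycline. Every control library lay above every SH2 library for 8 of 9 receptors, a pattern held by 8.59% of the genes tested; CD79B was the exception. CR2, FCRL3, FCER2 and MS4A1 passed the filter on low counts only through the control libraries, so for these 4 the filter itself favours a difference; of the 5 that reached the minimum count in SH2 libraries too, 4 were lower without doxycycline and 3 with it. None of the 9 passed the threshold between treated and untreated cells of either kind. On simulated counts these comparisons recovered 17.5% of 2-fold changes in SH2 cells and 2.08% in control cells.

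**Figure D1:**
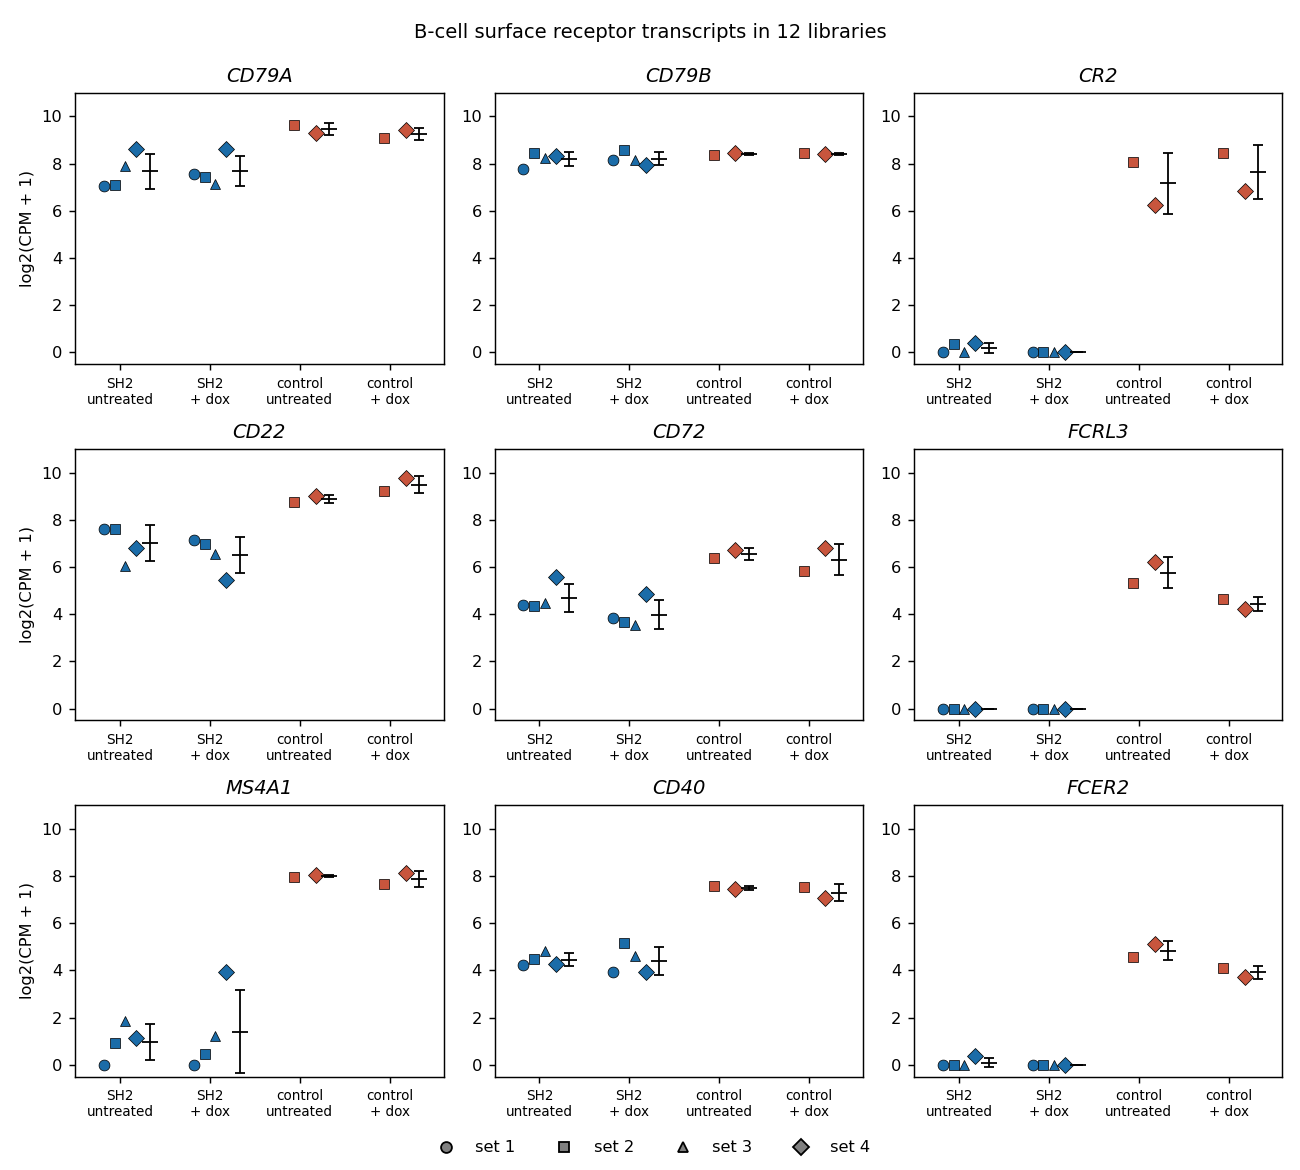
Level of each receptor transcript, as log2(CPM + 1), in the 12 libraries by group; each point is 1 library and its shape gives the set. CD79B lies at one height in all 4 groups, CR2, FCRL3 and FCER2 lie at or near 0 in the 8 SH2 libraries, and the other 5 lie lower in SH2 than in control cells, with the treated SH2 library of set 4 raised for MS4A1.

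Of the signalling chains of the antigen receptor, CD79A passed the test without doxycycline and CD79B in neither comparison. CD79A (ENSG00000105369, GRCh38 chromosome 19, 41877120 to 41881372, plus strand) was at 131, 137, 237 and 396 CPM in untreated SH2 cells of sets 1 to 4 and at 185, 170.5, 140.0 and 391 CPM in treated ones. Control cells of sets 2 and 4 held 796 and 629 CPM untreated and 534 and 688 CPM treated, so the groups did not overlap, and set 4 was the highest SH2 set in both conditions. Without doxycycline the group means were 225 ± 124 (SD, n = 4) and 712 ± 118 CPM (SD, n = 2), a log2 fold change of -1.66 ± 0.46 (SE, edgeR adjusted p = 0.0397), or 3.16-fold lower in SH2 cells. With doxycycline they were 222 ± 115 and 611 ± 109 CPM, with a log2 fold change of -1.46 ± 0.46 that did not pass (edgeR adjusted p = 0.0562). Within set 2 CD79A was 5.80-fold lower in SH2 than in control cells untreated and 3.13-fold lower treated, and within set 4 it was 1.59-fold and 1.76-fold lower.

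The CD79A call was lost when any 1 of 6 libraries was left out. Its edgeR adjusted p without doxycycline became 0.0836, 0.110 and 0.0811 without the untreated SH2 library of set 1, 2 or 3, 0.0540 without the treated one of set 2, and 0.271 and 0.106 without the untreated control library of set 2 or 4, while the log2 fold change stayed between -2.08 and -1.47. With doxycycline the difference passed without the untreated SH2 library of set 4 (edgeR adjusted p = 0.0339) or the treated one (0.00839), and with the set as a block (log2 fold change -1.27, 0.0332, where 18.1% of the genes tested passed).

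CD79B (ENSG00000007312, chromosome 17, 63928740 to 63932354, minus strand) was at 219, 349, 301 and 323 CPM in untreated and 282, 385, 283 and 245 CPM in treated SH2 cells, and at 331, 343, 348 and 334 CPM in the control libraries. Control values fell inside the SH2 range, so the groups overlapped. The log2 fold change of SH2 over control was -0.18 ± 0.27 untreated (95% interval -0.76 to 0.41, edgeR adjusted p = 0.801) and -0.19 ± 0.27 treated (-0.78 to 0.40, adjusted p = 0.718). These intervals do not hold the fitted value of CD79A, but they overlap its 95% intervals (-2.64 to -0.68 untreated, -2.45 to -0.48 treated). The fit did not test the folds of both chains against each other. The intervals of CD79B still allow a decrease of up to 1.70-fold untreated and 1.72-fold treated. GENCODE places another protein-coding gene, AC127029.3, on the same strand over CD79B, and reads shared with it could have been left unassigned.

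The count ratio of CD79A to CD79B within a library removes depth and scaling. It was 0.596, 0.393, 0.788 and 1.23 in untreated and 0.656, 0.443, 0.495 and 1.60 in treated SH2 cells of sets 1 to 4, against 2.41 and 1.83 in untreated and 1.53 and 2.06 in treated control cells. Untreated groups did not overlap, whereas the treated SH2 library of set 4 lay above the treated control library of set 2. Means were 0.751 ± 0.355 and 2.12 ± 0.406 untreated (two-sided exact permutation p = 0.133, the smallest that 4 against 2 libraries allow) and 0.798 ± 0.541 and 1.80 ± 0.373 treated (two-sided exact permutation p = 0.267). The design cannot bring this test below 0.05.

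**Figure D2:**
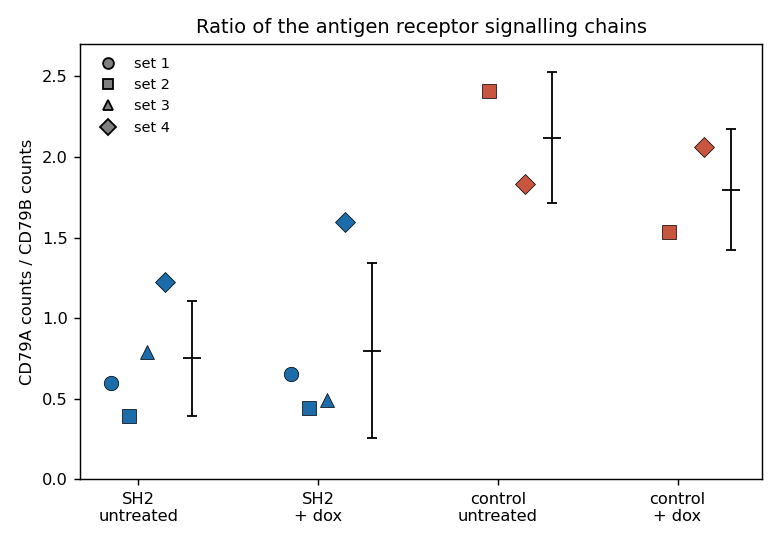
CD79A counts divided by CD79B counts in each library, by group; points are libraries, shapes are sets. The 4 untreated SH2 libraries lie from 0.393 to 1.23 and both untreated control libraries above them, at 1.83 and 2.41, while with doxycycline the SH2 library of set 4, at 1.60, lies above the control library of set 2, at 1.53.

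CR2, FCRL3 and FCER2 were at or near 0 in SH2 cells, and CD72 was 3.50-fold lower in them untreated and 5.16-fold lower treated by the fit; a stretch before a RefSeq start of each of these 4 genes is shown because a shared feature of the start site could be looked for there. The CD72 stretch precedes a RefSeq start that lies inside the gene as GENCODE annotates it. They are reference sequence from RefSeq on GRCh38.p14, 5′ to 3′ on the gene's strand, cut to the part outside annotated exons, with matches on either strand to an NF-kB motif (GGGA, any 4 bases, CC) in capitals. Stretches of CD79A, of CD22 (3.36-fold lower untreated, 7.35-fold treated) and before the other FCER2 start held no such match and are not shown. CR2 (1:207454078-207454229, plus strand), FCRL3 (1:157700858-157701019, minus strand), FCER2 (19:7702147-7702381, minus strand) and CD72 (9:35618520-35618663, minus strand) read as follows.
CR2: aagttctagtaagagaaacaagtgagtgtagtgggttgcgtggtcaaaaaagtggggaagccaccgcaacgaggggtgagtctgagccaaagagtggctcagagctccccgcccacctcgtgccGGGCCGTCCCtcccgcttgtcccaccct
FCRL3: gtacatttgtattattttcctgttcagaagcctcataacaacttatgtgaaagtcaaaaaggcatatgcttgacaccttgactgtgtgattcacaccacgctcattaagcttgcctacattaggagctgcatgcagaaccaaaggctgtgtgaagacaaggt
FCER2: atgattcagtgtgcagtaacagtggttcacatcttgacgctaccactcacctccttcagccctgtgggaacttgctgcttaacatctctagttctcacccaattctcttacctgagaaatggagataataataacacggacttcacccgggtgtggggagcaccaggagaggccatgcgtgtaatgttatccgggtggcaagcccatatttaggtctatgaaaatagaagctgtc
CD72: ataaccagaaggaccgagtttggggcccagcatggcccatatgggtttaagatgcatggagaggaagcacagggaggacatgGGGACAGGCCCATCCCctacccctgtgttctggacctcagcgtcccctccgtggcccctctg

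RefSeq windows of 250 bases before to 50 after the start matched 6 of the 9 receptors by symbol, with 7 windows, since FCER2 has a pair; MS4A1, CD79B and CD40 had none. Searched on both strands, the NF-kB motif was found for CD79A, CR2, CD72 (a pair of matches that overlap) and FCRL3, where 25.6% of all 35116 windows hold it. The FCRL3 match starts 82 bases before the RefSeq start and falls in sequence that GENCODE places in an exon, so it is not printed. The E-box CAGGTG was found for CD79A and CR2 (20.6% of all windows) and the E-box CAGCTG for CR2 and FCRL3 (17.9%). The octamer ATGCAAAT (1.77% of all windows), the ETS core GAGGAAGT (2.59%) and the EBF palindrome CCCNNGGG (19.1%) were in 0 of the 7 windows, which says only that these letters are not there. No motif searched was held by CR2, FCRL3 and FCER2 together.

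CR2 (ENSG00000117322, chromosome 1, 207454230 to 207489895, plus strand), the complement receptor of the coreceptor, had 1 read each in the untreated SH2 libraries of sets 2 and 4 and none in the other 6 SH2 libraries. Control cells of sets 2 and 4 held 266 and 75.2 CPM untreated and 348 and 114 CPM treated. All 4 control libraries were thus far above all 8 SH2 libraries, and among the controls set 4 was 3.54-fold lower than set 2 untreated and 3.06-fold lower treated. Over the groups 2 reads stood against 769 without doxycycline, 964-fold lower in SH2 cells (95% counting interval 266 to 7971, edgeR adjusted p = 5.49e-05), and 0 against 1385 with it, at least 887-fold lower (adjusted p = 3.34e-05) against a floor of 3 reads over the group. These intervals and bounds come from reads pooled over each group, so they hold only the error of counting and leave out the spread between libraries. Even the error of counting may be larger, because the libraries carry no molecular identifiers and copies of 1 molecule can be read repeatedly. The set with the higher CR2 was also the control set with the T-cell transcripts given above. The control libraries of set 4 had 208 and 298 reads of CR2. Without both control libraries of set 2 the fitted log2 fold change, which for so few SH2 reads depends on the prior count, went from -9.68 to -8.51 untreated (edgeR adjusted p = 0.000263) and from -12.35 to -11.35 treated (0.000106). In bulk RNA a smaller share of cells with a transcript and less of it per cell cannot be told apart.

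The 3 inhibitory receptors had lower levels in SH2 cells, CD22 and CD72 by several-fold and FCRL3 to no read at all. CD22 (ENSG00000012124, chromosome 19, 35319261 to 35347355, plus strand), a lectin that binds sialic acid and dampens antigen receptor signals, was at 197, 194, 64.5 and 109.5 CPM in untreated and 139.9, 123, 92.9 and 42.1 CPM in treated SH2 cells. Control libraries held 433 and 516 CPM untreated and 599 and 865 CPM treated, all above the SH2 values. Untreated means were 141 ± 65.3 (SD, n = 4) and 474 ± 58.5 CPM (n = 2), a log2 fold change of -1.75 ± 0.46 (SE, edgeR adjusted p = 0.0307), and treated means 99.6 ± 43.0 and 732 ± 188 CPM, a log2 fold change of -2.88 ± 0.46 (adjusted p = 0.00122), or 3.36-fold and 7.35-fold lower. Without doxycycline the edgeR adjusted p was 0.0543 and 0.0789 without the untreated SH2 library of set 3 or 4 and 0.126 and 0.169 without the untreated control library of set 2 or 4. With doxycycline CD22 passed without any 1 library (adjusted p 0.0167 at most).

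CD72 (ENSG00000137101, chromosome 9, 35609533 to 35646810, minus strand), a lectin-like receptor that binds the semaphorin CD100, was at 19.7, 19.6, 21.1 and 46.2 CPM in untreated and 13.4, 11.8, 10.5 and 28.3 CPM in treated SH2 cells of sets 1 to 4. Set 4 was the highest in both conditions, at more than the other 3 sets, which lay close together. Control libraries held 82.6 and 104 CPM untreated and 56.4 and 109.6 CPM treated, with no overlap. The log2 fold change was -1.81 ± 0.44 untreated (SE, edgeR adjusted p = 0.0205, 3.50-fold lower) and -2.37 ± 0.45 treated (adjusted p = 0.00359, 5.16-fold lower). The untreated adjusted p was 0.0501, 0.0652 and 0.0579 by edgeR without the untreated SH2 library of set 1, 2 or 3 and 0.0797 and 0.146 without the untreated control library of set 2 or 4, and the treated one was 0.0692 without the treated control library of set 4. TESK1 and antisense RNAs lie on the other strand over CD72, and the strand setting of the counting is not given in the sources used here.

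FCRL3 (ENSG00000160856, chromosome 1, 157674321 to 157700857, minus strand), an Fc receptor-like protein with both activating and inhibitory motifs, had no read in any of the 8 SH2 libraries. Control cells of sets 2 and 4 held 38.4 and 73.7 CPM untreated, from 81 and 204 reads, and 23.7 and 17.6 CPM treated, from 74 and 46 reads. It was at least 238-fold lower in untreated SH2 cells (0 against 285 reads, edgeR adjusted p = 0.00013) and at least 76.9-fold lower in treated ones (0 against 120 reads, adjusted p = 0.000348). Unlike CR2, untreated FCRL3 was higher in control set 4 than in set 2, and an antisense RNA, AL356276.1, overlaps it.

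MS4A1 (ENSG00000156738, chromosome 11, 60455752 to 60470760, plus strand), the CD20 antigen, was at 249.6 and 259 CPM in untreated and 199 and 278 CPM in treated control cells. Untreated SH2 cells held 0, 0.89, 2.59 and 1.21 CPM and treated ones 0, 0.38, 1.32 and 14.5 CPM in sets 1 to 4, so the treated library of set 4, with 43 reads, lay above the other 7 SH2 libraries and below all controls. The log2 fold change was -7.66 ± 1.01 untreated (SE, edgeR adjusted p = 0.000369, 202-fold lower) and -5.81 ± 0.90 treated (adjusted p = 0.00105, 56.3-fold lower). Without the treated SH2 library of set 4 the treated value was -8.50, and without the untreated one of set 3 the untreated value was -8.34. The library that raised MS4A1 was the one with the interferon-response genes, whose part in that level was not tested. The untreated means were 1.17 ± 1.08 (SD, n = 4) and 254 ± 6.78 CPM (n = 2).

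CD40 (ENSG00000101017, chromosome 20, 46118272 to 46129863, plus strand), the receptor for T-cell help, was lower in SH2 cells in both comparisons. It was at 17.6, 21.3, 27.5 and 18.1 CPM in untreated and 14.2, 34.9, 23.4 and 14.5 CPM in treated SH2 cells, against 188 and 172 CPM in untreated and 185 and 131 CPM in treated control cells. The lowest control library was at more than 3 times the highest SH2 library. Means were 21.2 ± 4.56 (SD, n = 4) and 180.1 ± 11.8 CPM (n = 2) untreated and 21.8 ± 9.76 and 158 ± 38.0 CPM treated. The log2 fold change was -3.09 ± 0.34 untreated (SE, edgeR adjusted p = 7.79e-05, 8.49-fold lower) and -2.86 ± 0.34 treated (adjusted p = 0.000143, 7.26-fold lower), and CD40 passed under each of the 22 alternatives tried in both comparisons.

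FCER2 (ENSG00000104921, chromosome 19, 7688758 to 7702146, minus strand), the IgE receptor CD23, had 1 read in all SH2 libraries, in the untreated one of set 4. Control cells of sets 2 and 4 held 22.8 and 33.6 CPM untreated, from 48 and 93 reads, and 16.3 and 12.2 CPM treated, from 51 and 32 reads. Without doxycycline 1 read stood against 141, 353-fold lower (95% counting interval 62.4 to 14055, edgeR adjusted p = 7.1e-05), and with it 0 against 83, at least 53.2-fold lower (adjusted p = 0.000164). A count of 0 in a group of SH2 libraries allows up to 0.246 CPM untreated and 0.272 CPM treated (3 reads over the group), so expression under that level was not detectable at this depth.

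**Figure D3:**
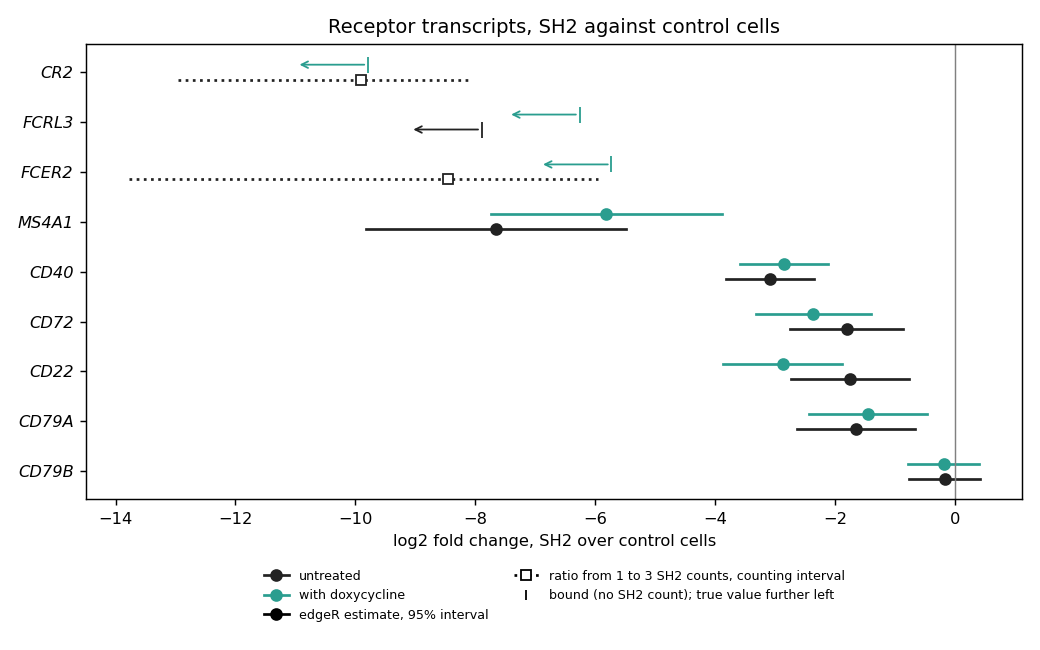
Log2 fold change of SH2 over control cells for each receptor, untreated and with doxycycline; filled points are edgeR estimates with 95% intervals, open squares are ratios from 1 to 3 SH2 reads with counting intervals, and ticks are bounds where SH2 cells had no read. CD79B spans 0 in both comparisons, and the other 8 lie to the left of 0.

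Between treated and untreated cells no receptor passed the threshold in SH2 cells, where 0.0167% of the genes tested (2 genes) passed by edgeR. None passed in control cells or in the difference between the responses of both kinds of cell, where 0 genes passed by edgeR. At an unadjusted p under 0.05 the genes numbered 584 (4.88%), 82 (0.685%) and 116 (0.969%), and DESeq2's Wald test called 17 genes in SH2 cells, none of them a receptor. The receptor closest to a change in SH2 cells was CD72, lower in treated than untreated cells in 4 of 4 sets, by 1.47-, 1.66-, 2.00- and 1.63-fold; it was the only 1 of 9 with that pattern, which 10.1% of genes tested had. Its log2 fold change was -0.73 ± 0.39 (95% interval -1.57 to 0.10, edgeR adjusted p = 0.983), and set 4 showed the same direction as the others although its level was higher. That fit has 1 term per group and does not use the pairing by set, so its p is no test of this pattern. With the set as a block no receptor passed either. CD22 was lower in sets 1, 2 and 4, by 1.41-, 1.57- and 2.60-fold, and 1.44-fold higher in set 3, with a log2 fold change of -0.50 ± 0.39 (adjusted p = 0.983). In control cells CD22 was higher after doxycycline in both sets (0.63 ± 0.55), and the test of the difference between the responses gave -1.13 ± 0.68 (edgeR adjusted p = 1).

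The remaining receptors showed no common direction with the drug. CD79A had a log2 fold change of -0.02 ± 0.39 in SH2 cells, with 1.42- and 1.24-fold higher values in sets 1 and 2 and a 1.69-fold lower value in set 3. CD79B had 0.00 ± 0.23 (95% interval -0.48 to 0.49) and CD40 0.04 ± 0.30 (-0.61 to 0.69), which leaves room for changes of up to 1.40-fold and 1.52-fold downward. MS4A1 had 1.75 ± 1.02 (adjusted p = 0.983 by edgeR), a value that became -0.94 without the treated library of set 4. CR2, FCRL3 and FCER2 had too few reads in SH2 cells for a fold. In control cells FCRL3 had -1.44 ± 0.52 and FCER2 -0.98 ± 0.57, each lower after doxycycline in both sets, and CR2 had 0.44 ± 0.62, higher in both (edgeR adjusted p = 1 for each). CR2, FCRL3 and FCER2 could not be compared with SH2 cells in this respect, since SH2 cells had almost none of them.

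**Figure D4:**
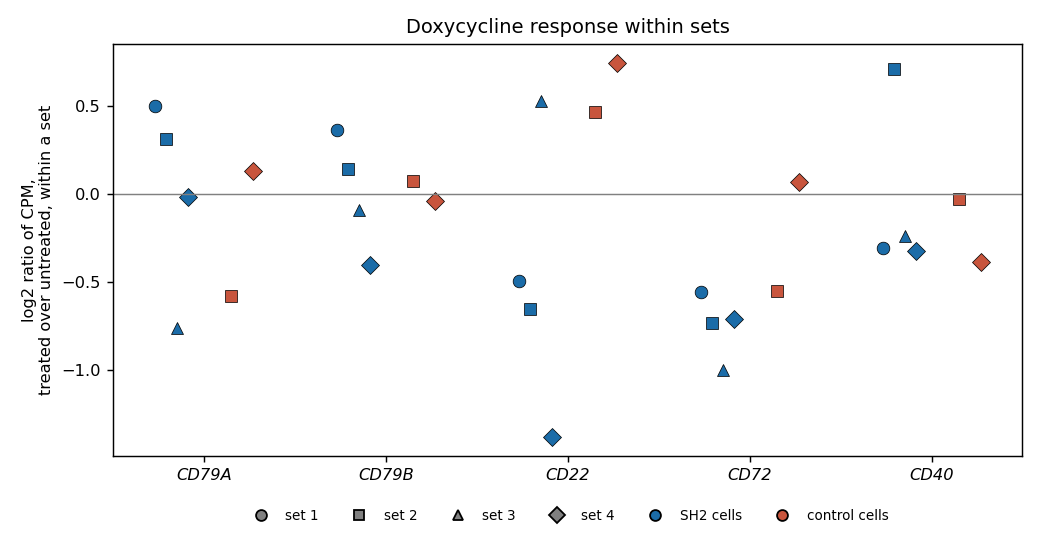
Log2 ratio of CPM after doxycycline to CPM without it, within each set, for the 5 receptors with reads in every library; colours give the cell kind and shapes the set. CD72 lies below 0 in all 4 SH2 sets, CD22 lies below 0 in 3 SH2 sets and above 0 in both control sets, and the other receptors scatter around 0.

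Genes that work with these receptors were then read from lists drawn up by function, with lower calls at 4.9% of all genes untreated and 6.48% treated, higher calls at 2.94% and 4.6%, and a median log2 fold change of 0.03 and 0.04 over all genes. The list medians below were the same with genes that had no read in a group set at their bound. Among 9 tested partners of the antigen receptor and the CR2 coreceptor, 2 were lower untreated, and 3 lower and 2 higher treated, with median log2 fold changes of -0.50 and -0.73. The tetraspanins CD82 (-3.36 ± 0.35 untreated, -2.88 ± 0.34 treated) and CD37 (-3.36 ± 0.40, -2.90 ± 0.40) were lower in both. CD53, another tetraspanin, was lower with doxycycline (-1.19 ± 0.34), where the tetraspanin CD9 was higher (2.71 ± 0.66). IFITM1, an interferon-induced membrane protein, had 34 reads in treated SH2 and 0 in treated control libraries. These reads are summed over the treated SH2 libraries, among them the one of set 4 with the interferon-response genes, whose part was not tested. CD81, named here as a partner of CR2 after its values were seen, did not pass, with -0.50 ± 0.36 untreated (edgeR adjusted p = 0.504) and -0.73 ± 0.35 treated (0.221). It was at 492 ± 125 CPM (SD, n = 4) in untreated SH2 cells, against 695 ± 158 CPM (n = 2) in controls.

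Proximal signalling genes of the antigen receptor were mostly not past the threshold: of 24, 3 were lower untreated and 6 treated, and none was higher (median -0.56 and -0.31). The Src-family kinase FGR had the smallest p in this list, at -6.06 ± 0.42 untreated and -5.70 ± 0.41 treated. PLCG2, the phospholipase that makes the calcium-releasing messenger, was lower (-1.46 ± 0.32 and -1.96 ± 0.31), as was the exchange factor VAV2 (-1.67 ± 0.32 and -1.59 ± 0.32), and PIK3AP1, an adaptor for the lipid kinase, was lower treated (-1.92 ± 0.38). Downstream of these, 6 of 20 genes were lower and 1 higher untreated, and 9 lower and 1 higher treated (median -0.86 and -1.21). CIITA, the activator of MHC class II genes, was lower at -3.19 ± 0.33 and -3.25 ± 0.33, and the kinase PRKCB at -5.81 ± 0.77 and -5.74 ± 0.77. FOXO1, a factor that antigen receptor signals keep out of the nucleus, was higher (1.76 ± 0.50 and 2.80 ± 0.53).

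The list of other inhibitory receptors and their phosphatases had 18 tested genes, of which 3 were lower and 1 higher untreated and 8 lower treated (median -1.16 and -1.12). FCGR2B, the inhibitory IgG receptor, had 0 reads in untreated SH2 against 48 in untreated control cells. PAG1, which anchors the kinase CSK, was 8.02-fold lower untreated and 9.27-fold lower treated, and CSK was lower at -1.44 ± 0.39 and -1.53 ± 0.39. PTPN6 (SHP-1), the phosphatase that CD22 and CD72 recruit, was lower with doxycycline (-2.59 ± 0.58), from 21 reads in SH2 and 69 in control libraries. FCRL5, a relative of FCRL3, was higher in untreated SH2 cells (2.97 ± 0.77), at 14.9 ± 6.81 CPM (SD, n = 4) against 1.91 ± 0.655 CPM (n = 2).

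Around CD40, 8 of 25 genes of the TNF receptor family and its signalling were lower untreated and 6 treated, and none was higher (median -0.75 and -0.70). CD80, a costimulatory ligand that CD40 induces, had 1 read in untreated SH2 against 169 in untreated control libraries and 0 against 201 treated. BIRC3, a ubiquitin ligase of the CD40 complex, was lower at -4.05 ± 0.55 and -3.65 ± 0.55, the death receptor FAS at -3.79 ± 0.65 and -2.75 ± 0.64, and CD83, a surface marker of activated B cells, at -2.59 ± 0.44 untreated. The list drawn up around FCER2 and CR2 also held genes of other receptors, such as ST6GAL1, the sialyltransferase that makes the ligand of CD22. Of its 10 tested genes only ST6GAL1 was lower, at -1.68 ± 0.24 and -1.87 ± 0.24 (median of the list -0.11 and 0.09). Of 19 transcription factors of B cells that regulate genes of this kind, 4 were lower untreated and 5 treated, none higher (median -0.15 and -0.09). SPIB was lower at -6.15 ± 0.57 and -5.88 ± 0.57, IRF8 at -3.06 ± 0.39 and -3.36 ± 0.40 and BCL6 at -1.22 ± 0.29 and -1.26 ± 0.29. PAX5 (-0.22 ± 0.37, edgeR adjusted p = 0.818 untreated) and EBF1 (1.23 ± 0.54, 0.217), the factors of B-cell identity, did not pass and were named after their values were seen. No gene of these lists passed in the doxycycline comparisons, where 0.0167% of genes in SH2 cells and none in control cells did.

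**Figure D5:**
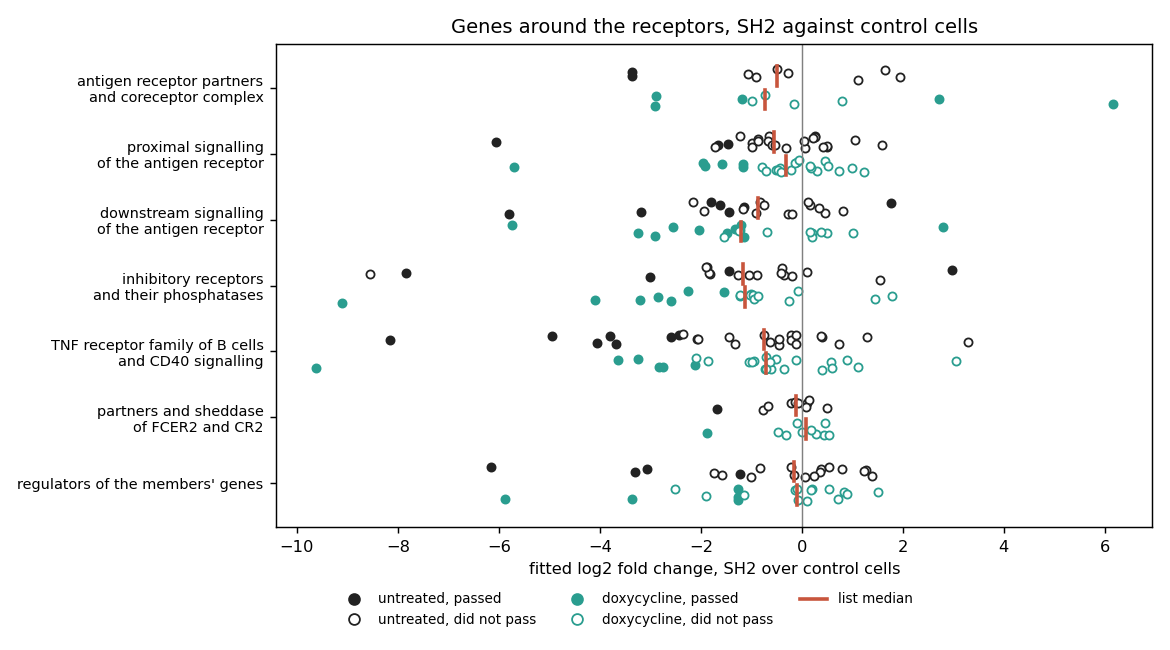
Fitted log2 fold change of SH2 over control cells for each tested gene of 7 functional lists, untreated and with doxycycline; filled points passed the edgeR threshold and red bars are list medians. The medians lie below 0 for 6 of the lists in both comparisons, and for the list around FCER2 and CR2, which also holds genes of other receptors, at -0.11 untreated and 0.09 treated.

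The genes whose profiles over the 12 libraries lay closest to each receptor were found by root mean square distance of centred log2 CPM, among the 8339 genes whose log2 CPM averaged 3 or more; the libraries share the split between SH2 and control cells, so these distances only describe. CD79A lay closest to CLEC16A (0.316), CSK (0.335) and MRPL41 (0.359), and CD79B to PRRC2B (0.149), TM9SF4 (0.172) and UBE2G1 (0.181). For CD22 the nearest were HLA-DQB1 (0.320), DNPH1 (0.415) and NFIA (0.437), and for CD72 they were RGS19 (0.403), WDR4 (0.424) and CD79A itself (0.441). CD40 lay closest to GM2A (0.361), KLK1 (0.421) and HSH2D (0.436). For MS4A1 the nearest were SPIB (0.751), PTAFR (1.12) and FGR (1.17). This distance grows with how widely a gene varies, so it cannot be compared between receptors. SPIB and MS4A1 had a correlation of r = 0.987 over the 12 libraries, which share the split between SH2 and control cells. SPIB, like MS4A1, was highest among SH2 libraries in the treated one of set 4, at 12.1 CPM against 1.26 to 7.54 CPM in the other SH2 and 286 to 382 CPM in the control libraries. CR2, FCRL3 and FCER2 had a mean under that limit and were not compared.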

How the data were processed

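RNA was measured in 12 libraries; per the labels' protocols the kit (QuantSeq) primes on poly(A), and each gene is read near its transcript's end. The authors deposited whole-read counts per gene for 64253 gene IDs; the submitters' processing notes name FastQC, STAR, HTSeq, DESeq2 and hg38 (GRCh38), with no versions. Non-unique alignments (42.2% to 63.8% per library), reads in no gene (3.25% to 7.73%) and ambiguous ones (1.11% to 1.62%) stayed out of library sizes. The authors' deposited table of normalized signal equalled the counts after division by 1 factor per library (100% whole, tolerance 0.01).

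Counts were fitted in R 4.3.3 with edgeR 4.0.16: filterByExpr by group (minimum count 10), TMM, all 12 libraries with 1 term per group, robust quasi-likelihood test, Benjamini-Hochberg over 11968 genes, threshold 0.05. The biological coefficient of variation was 0.376. Contrasts were SH2 against control cells untreated and treated, the response to doxycycline in each, and the difference between these responses. Groups with 1 to 3 counts got exact 95% count ratios, groups with 0 a bound at 3 counts. Both used reads pooled over a group and leave out the spread between its libraries. On simulated counts the untreated SH2 and control comparison recovered 49.5% of 4-fold changes and 4.08% of 2-fold ones among 11600 genes. The treated comparison recovered 60% and 6.25%. For doxycycline, 74.7% of 4-fold and 17.5% of 2-fold changes were recovered in SH2 cells, and 36.1% and 2.08% in control cells. Most 2-fold responses to the drug were thus missed in this simulation. It drew independent counts without an effect of the set and averages over genes, so these shares need not hold for a single receptor. Alternatives were DESeq2 size factors, no filter, the set as a block, DESeq2 1.42.0, the compared groups only, limma-trend (3.58.1) on log2(deposited signal + 1), sets 2 and 4 only, and leaving out each library. The reads recovered from the deposited table, and leaving out both SH2 libraries of set 4 or both control libraries of set 2, were added after seeing the data.

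The receptors and the lists around them were chosen with earlier results of these data known. Every receptor was named; of each list, up to 4 genes per direction past the threshold by smallest p; and for each receptor the 3 genes with the closest profiles. Some list genes picked this way are not reported here. Same-set SH2 libraries deviated together (r 0.182 to 0.650, all 4 pairs over 0.1, against -0.544 to 0.267 between sets). The value of set 2, 0.182, lay below the highest one between sets, so the evidence for pairing by set number is weak there. Set numbers from the labels paired the samples in the within-set ratios and in the alternative with the set as a block. The folds, intervals and edgeR p-values of the doxycycline responses, fitted with 1 term per group, do not use this pairing. No replicate pair agreed within sampling noise (chi-square per degree of freedom 8.39 to 47.7). Positions are from GENCODE 29 on GRCh38, 1-based.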

Additional observations from a re-analysis of the deposited data

Results flagged for a closer look

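If values are independent and normally spread, chance places a sample this far from the rest in about 5% of groups of 4. CPM need not be spread so, those of MS4A1 lie near 0, and groups that share a set are not independent. The share is therefore no test of the count that follows. Among 12 such groups of SH2 libraries (receptors with enough reads), 3 held a library far from the other 3, and each was of set 4. CD72 was at 46.2 CPM in the untreated SH2 library of set 4, where sets 1 to 3 lay between 19.6 and 21.1 CPM. It was at 28.3 CPM in the treated SH2 library of set 4, where the others lay between 10.5 and 13.4 CPM. MS4A1 was at 14.5 CPM in the treated SH2 library of set 4, from 43 reads, where the others lay between 0 and 1.32 CPM. In both CD72 cases the library was still below the lowest control library, at 56.4 CPM.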

How the results depend on the processing

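CR2, FCRL3, MS4A1, CD40 and FCER2 passed in both comparisons of SH2 with control cells under each of the 22 alternatives, and CD79B under none. CD22 passed under 16 untreated and 22 treated, CD72 under 15 and 20, and CD79A under 14 and 7 (edgeR adjusted p up to 0.312 and 0.282). Over all receptors and comparisons, 947 recomputed values stayed on their side of the threshold, 23 lost the call and 7 gained it; 0 called values changed sign, while some uncalled doxycycline responses, such as that of MS4A1, did. Receptors called untreated were 5 with sets 2 and 4 only and 5 without both control libraries of set 2, and 5 to 8 leaving out each library; treated, 6 to 8. Genes called untreated were 938, with 1449 without a filter, 413 with sets 2 and 4 only, 322 without both control libraries of set 2 and 343 to 1202 leaving out each library. Treated, 1326 became 789 with the compared groups only, 652 with sets 2 and 4 only, 646 without both control libraries of set 2 and 645 to 1462 leaving out each library. In SH2 cells with doxycycline, 2 became 47 without a filter, 17 by DESeq2, 1 without both SH2 libraries of set 4, 0 with the compared groups only, with sets 2 and 4 only or without both control libraries of set 2, and 0 to 3 leaving out each library. In control cells 0 became 3 without a filter, and for the difference between the responses 3 without a filter and 3 by DESeq2. The set as a replicate block gave 1505 and 2171 genes for SH2 against control cells, 6 for doxycycline in SH2 cells and 1 for the difference between the responses; among the receptors it changed the call of CD79A in treated cells only. The cause of these shifts was not tested. A comparison that leaves 1 control library assumes that it varies like the other groups. Most alternatives kept the filter on low counts, which CR2, FCRL3, MS4A1 and FCER2 passed only through the control libraries.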
